A study of Mus musculus with 9 samples.

Results

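Livers of Scd2f/f mice that received DEN + WAD were compared with livers of untreated Scd2f/f mice, gene by gene, by RNA sequencing (RNA-seq). DEN is diethyl nitrosamine, a liver carcinogen, and WAD is the Western alcohol diet, a liquid food that holds ethanol, cholesterol and lard. The comparison holds 6 of the 9 samples of the series, chosen by their labels: 3 livers after DEN + WAD and 3 untreated livers. The other 3 are livers of Scd2f/f;Col1a1-Cre mice after DEN + WAD, and their means are given only beside those of some genes.

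All mice were of the C57BL/6 strain by the labels (C57BL/6J by the methods) and carried Scd2 with a floxed exon, and neither Scd2f/f group carried a Cre recombinase. The study's methods name male mice. By the labels, the treated mice were 2 weeks old when they were given 10 mg/kg of DEN and 6 weeks old when 4 months of WAD began, and the methods give a longer time on the diet. Only "Untreated" is given for the other group, without an age, although the treatment text attached to every sample names DEN and WAD. DEN, the diet and any difference in age, food or day of collection therefore cannot be told apart. The labels call the tissue liver, and the methods describe the tissue of the treated mice as lying next to tumors. Scd2f/f;Col1a1-Cre mice express the recombinase from the Col1a1 promoter, which is active in activated hepatic stellate cells (HSC) and other fibroblasts, so that Scd2 can be deleted in these cells while the rest of the liver keeps it.

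The liver makes cholesterol, bile acids and most plasma proteins. Its sterol synthesis genes are switched on by the transcription factor SREBP2 when sterols are scarce in the endoplasmic reticulum, whereas LXR, a receptor for oxidized sterols, switches on genes of cholesterol efflux. DEN is activated in hepatocytes by cytochrome P450 enzymes and damages DNA. Kupffer cells are the macrophages that live in liver sinusoids, and quiescent HSC store vitamin A and turn into matrix-producing myofibroblasts after injury.

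For each gene, the data are 1 mean of upper-quartile normalized read counts per group, as given by the authors, each over 3 mice. No values of individual mice were used here. The spread between mice is therefore unknown, no test was run, and 1 mouse could account for a difference between means. All ratios are log2 of the treated mean over the untreated mean with no pseudocount. A gene was counted as higher or lower when its means differed at least 2-fold, that is, by a log2 ratio of at least 1 in size, and when the mean of both group means was at least 1. A gene with a mean under 1 in 1 group can pass this filter through the other group alone. The counts are not divided by gene length, so levels are compared between groups and not between genes. In bulk liver, fewer cells of a type and less RNA per cell cannot be told apart.

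Of 16755 genes, 11797 had a mean of at least 1. Among these, 753 (6.38%) were at least 2-fold higher and 356 (3.02%) at least 2-fold lower after DEN + WAD, and 10688 lay between. The median log2 ratio was 0.03, and the middle 50% of genes lay between -0.24 and 0.31. Genes with low means were counted more often: 14.98% of the 2517 genes with a mean from 1 to 3 were at least 2-fold higher, against 2.58% of the 3223 genes with a mean from 10 to 30. Of the 5599 genes whose mean was 10 or more, 143 (2.55%) were at least 2-fold higher and 156 (2.79%) at least 2-fold lower. The plot of ratios against means shows these genes and some of the lists.

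**Figure D1:**
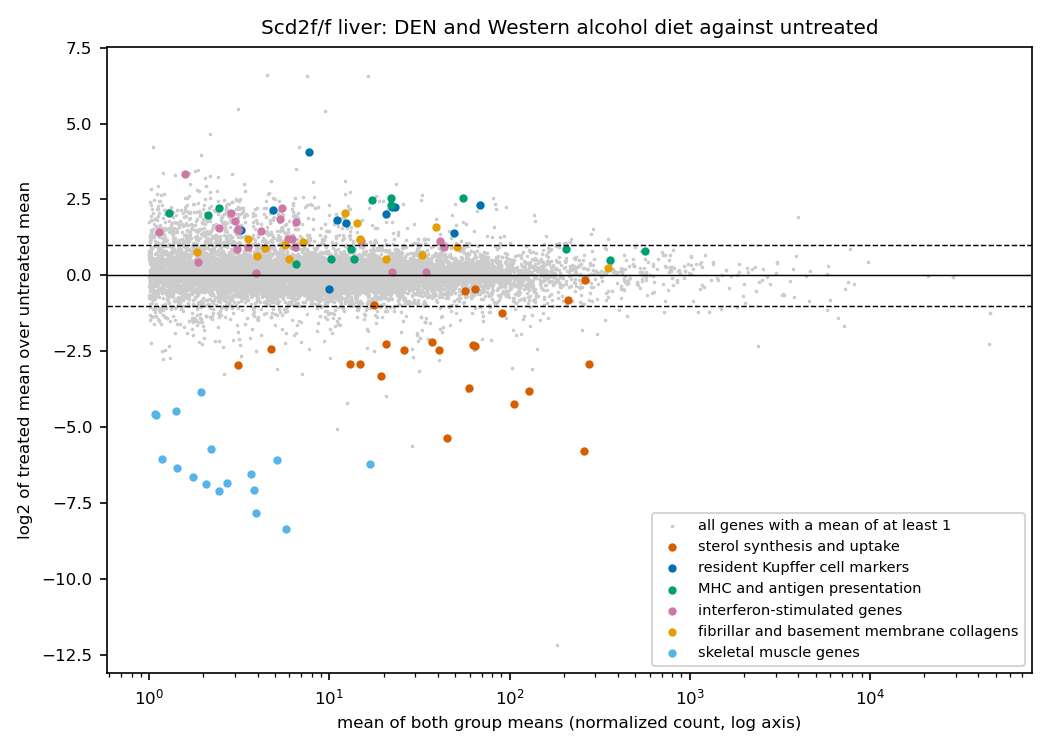
Log2 of the treated over the untreated mean (y) against the mean of both group means on a log axis (x), 1 point per gene with a mean of at least 1. Dashed lines mark 2-fold. Most sterol synthesis genes and the skeletal muscle genes lie below the grey cloud of all 11797 genes, and Kupffer cell, MHC, interferon-stimulated and collagen genes lie mostly above 0.

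The groups also differed in features that touch many genes at once. The 75th percentile of the means was 15.5 in both groups, as the normalization sets it, while the sum of all means was 658322 in treated and 820581 in untreated liver. Most of that gap lay outside protein-coding genes, which made up 72.8% of the treated and 59.9% of the untreated sum. The largest gaps were at CT010467.1, annotated as a ribosomal RNA on chromosome 17 (authors' means 76300 untreated and 15800 treated), and at Rn7s1 and Rn7s2, which encode the RNA of the signal recognition particle and share 1 pair of values (65300 and 27500). Small nuclear RNAs were at least 2-fold lower for 16 of 23, and small nucleolar RNAs for 16 of 32, where 3.02% of all genes were. These RNA kinds mostly lack a poly(A) tail, and the libraries were prepared from polyadenylated RNA. When both groups were scaled to the same total over all rows, every log2 ratio moved by 0.32, and 1231 genes were then at least 2-fold higher and 218 lower. With the same total over protein-coding rows the shift was 0.04, with 796 higher and 331 lower.

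Of 18 skeletal muscle genes, chosen after their values were seen, all were higher in untreated liver. Their summed mean was 116 untreated and 1.70 treated. Myh4, Tnnt3, Mb and Xirp2 were at the lowest value of the table in treated liver, 0.0348, against 11.5, 7.85, 4.09 and 4.82 in untreated liver. Without these genes 339 genes were at least 2-fold lower. Genes of red blood cells were lower too: all 4 globin genes by at least 2-fold (3.02% of all genes were), Hbb-bs from 163 to 46.2. Where these muscle and globin values come from, and their part in other differences, was not tested. The 10 hepatocyte markers summed to 43542 untreated and 43442 treated, with Alb at 21300 and 20900, so both groups bear the label of liver. Of these, only Tat, a tyrosine aminotransferase of the periportal hepatocyte, differed by 2-fold (499 and 181).

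Genes of sterol synthesis and uptake were lower as a group. All 23 listed genes passed the filter, all 23 were lower after DEN + WAD and 18 were at least 2-fold lower, where 46.8% of all genes were lower by any amount and 3.02% at least 2-fold. The median log2 ratio of the list was -2.45. The enzymes are given in the order in which the pathway uses them. Hmgcs1, which makes HMG-CoA, had a mean of 488 untreated and 64.8 treated. Idi1, the isomerase that supplies both isoprene units, is encoded on the plus strand of chromosome 13 from 8885501 to 8892452. Its mean of 510 became 9.12, a 55.9-fold lower value and the lowest ratio among protein-coding genes other than the skeletal muscle genes. Fdps, which makes farnesyl diphosphate, was 13.2-fold lower (111 and 8.41).

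Sqle, the squalene epoxidase that commits carbon to sterols, had means of 87.3 and 2.14, 40.8-fold lower. Of the enzymes that follow, Cyp51 went from 238 to 17, Msmo1 from 202 to 10.6 and Nsdhl from 35.4 to 3.53. Late steps of the pathway were split. Dhcr7, the last reductase of the ring, was at 43.8 and 7.95. Sc5d had means of 270 and 152 and Ebp of 74.1 and 54.5, both under 2-fold. Srebf2, the gene of SREBP2, was just under 2-fold lower (23.4 and 11.8). Insig1, an SREBP2 target that holds SREBP in the endoplasmic reticulum, was 2.37-fold lower. Gm13502, a processed pseudogene on chromosome 2, was also among the lowest ratios of the table (56.7 and 1.15).

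**Figure D2:**
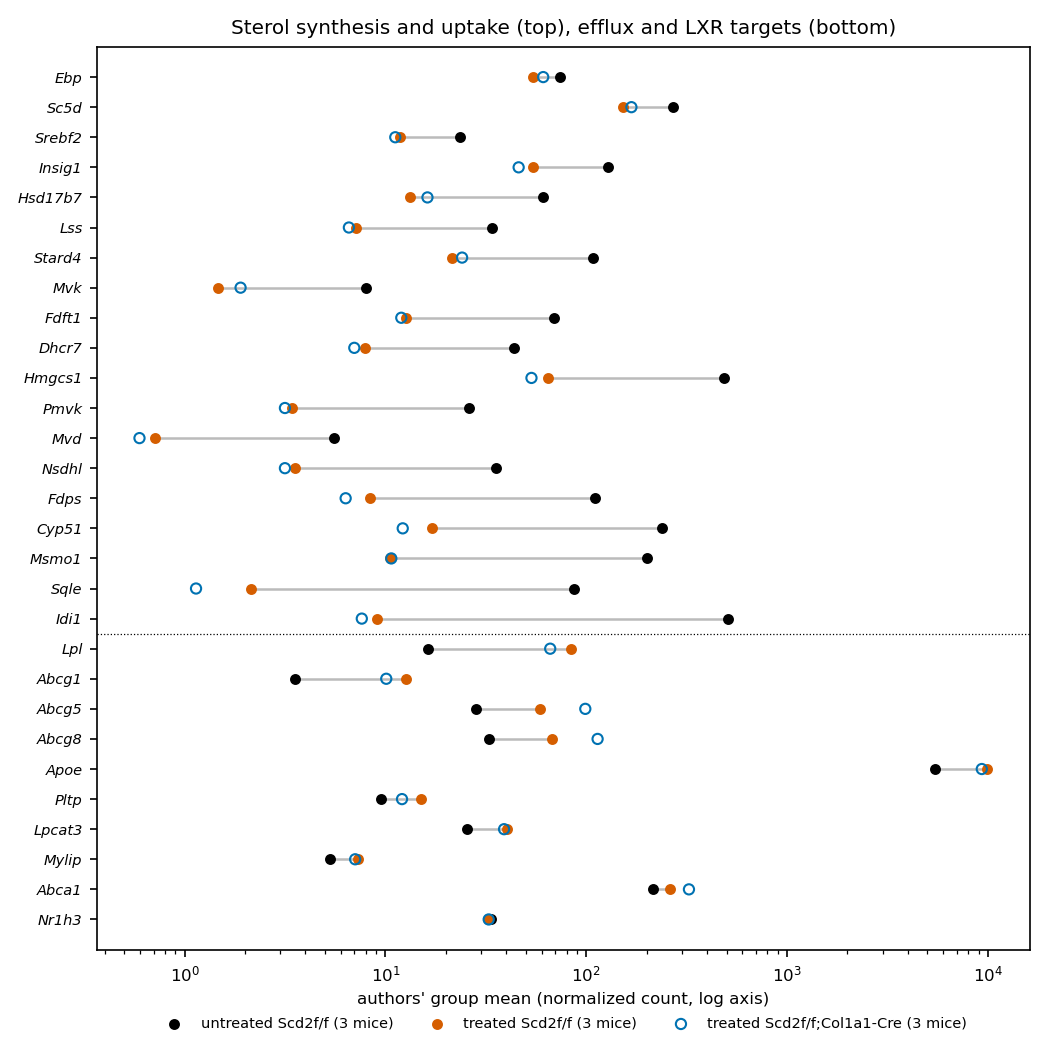
Authors' group means on a log axis (x) for most genes of sterol synthesis and uptake above the dotted line and of efflux and LXR targets below it. Black, untreated Scd2f/f; orange, treated Scd2f/f; open blue, treated Scd2f/f;Col1a1-Cre (3 mice each, no error available). Every sterol synthesis gene drawn has its orange point left of the black one, from Ebp (74.1 and 54.5) to Idi1 (510 and 9.12).

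SREBP2 binds sterol regulatory elements. The 9-letter form TCACNCCAC, where N is any base, was searched on both strands of RefSeq promoters (GRCm38.p6, from 250 bases before to 50 after each start). It was found in 1 of 15 listed genes with a promoter sequence, against 1.24% of all 32851 promoters. Counted per gene, in any of its promoters, it was found in 1.51% of the 8804 tested genes with a promoter sequence. The match, shown because Hmgcs1 opens the pathway, is in capitals in the sequence of the plus strand at chr13:119690194-119690242, with its first base 137 bases before the start:

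Hmgcs1: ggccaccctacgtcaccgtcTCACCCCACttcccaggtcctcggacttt

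Genes of cholesterol efflux and other LXR targets were higher in part. Of 10 listed genes, all measured, 4 were at least 2-fold higher and 0 lower, against 6.38% and 3.02% of all genes, and the median log2 ratio was 0.77. Abcg5 and Abcg8, whose products together pump sterols into bile, were at 28.3 and 32.7 untreated and at 59.2 and 67.6 treated. Abcg1, an exporter of macrophages, went from 3.53 to 12.7. Lpl, a lipoprotein lipase that macrophages also express, went from 16.3 to 83.6. Abca1 (214 and 261) and Nr1h3, which encodes LXR alpha (33.5 and 32.5), differed little. Apoe had one of the largest gains in mean, from 5460 to 9970.

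Fatty acid synthesis had no common direction. Of 20 listed genes 19 passed the filter, and 3 were at least 2-fold higher and 3 at least 2-fold lower. Of all genes 6.38% and 3.02% were. The median was -0.04, or 0.28 with equal totals over all rows. Scd1, the main stearoyl-CoA desaturase of hepatocytes, had the largest gain of any gene, from 1670 to 6360 (3.81-fold). Scd2, the floxed gene and the desaturase of many other cell types, lies on chromosome 19 from 44293676 to 44306865, in the same cluster of desaturase genes as Scd1. Its mean was 2.46 untreated and 6.47 treated, 2.63-fold higher. Elovl5, an elongase of polyunsaturated fatty acids, was 2.05-fold higher. Thrsp, a lipogenic nuclear protein (107 and 19.5), Lpin1, a phosphatidate phosphatase (184 and 48.1), and Acly, which supplies cytosolic acetyl-CoA (139 and 52.2), were at least 2-fold lower. Fasn, the fatty acid synthase, had means of 243 and 150.

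Genes of lipid droplets and fatty acid uptake were mostly higher. Of 19 listed genes 16 passed the filter, and 14 of them were higher by any amount (52.6% of all genes were). By at least 2-fold, 4 were higher and 1 lower, against 6.38% and 3.02% of all genes. The droplet coat genes Plin4 (3.36 and 22.6) and Plin2 (130 and 269) and the fatty acid transporter Cd36 (23.7 and 138) were at least 2-fold higher. Vldlr, a receptor for triglyceride-rich lipoproteins, was at 4.22 and 9.97. Cidea, which fuses droplets in brown fat and steatotic liver, was under the filter but was 23.3-fold higher (0.0544 and 1.27). That ratio rests on an untreated mean near 0.04, the lowest value of any gene in untreated liver. Fabp5, a fatty acid binding protein, was at least 2-fold lower (16.4 and 6.19).

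Genes of fatty acid oxidation and targets of PPARA, the fatty acid receptor that drives it, were higher in part. Of 20 genes, 8 were at least 2-fold higher, against 6.38% of all genes, and 12 lay between. All 20 were higher by any amount, against 52.6% of all genes, with a median of 0.59. Cyp4a10 and Cyp4a14, omega-hydroxylases that are classic PPARA targets, had means of 54.8 and 32.9 untreated and 217 and 158 treated. Vnn1, a pantetheinase, was at 19.4 and 76.7. Fgf21, a hormone that the liver secretes in fasting and metabolic stress, went from 0.167 to 4.19. The mitochondrial enzymes differed less, with Cpt1a, which brings fatty acids to the matrix, at 197 and 248. Ppara itself was at 79 and 80.7.

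Bile acid genes had no common direction. Of 17, 3 were at least 2-fold higher and 2 lower, against 6.38% and 3.02% of all genes, and the median was 0.07. Cyp7a1, the rate-limiting enzyme of bile acid synthesis, was 2.77-fold lower (217 and 78.2), and Slco1a4, a basolateral uptake transporter, at 50.3 and 7.74, the lowest ratio of the list. Nr0b2, which encodes SHP, a repressor of Cyp7a1, was 2.21-fold higher (4.71 and 10.4). The canalicular phospholipid flippase Abcb4 went from 139 to 294, and the bile salt pump Abcb11 from 237 to 443. The uptake transporter of bile salts, Slc10a1, was at 192 and 170.

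**Figure D3:**
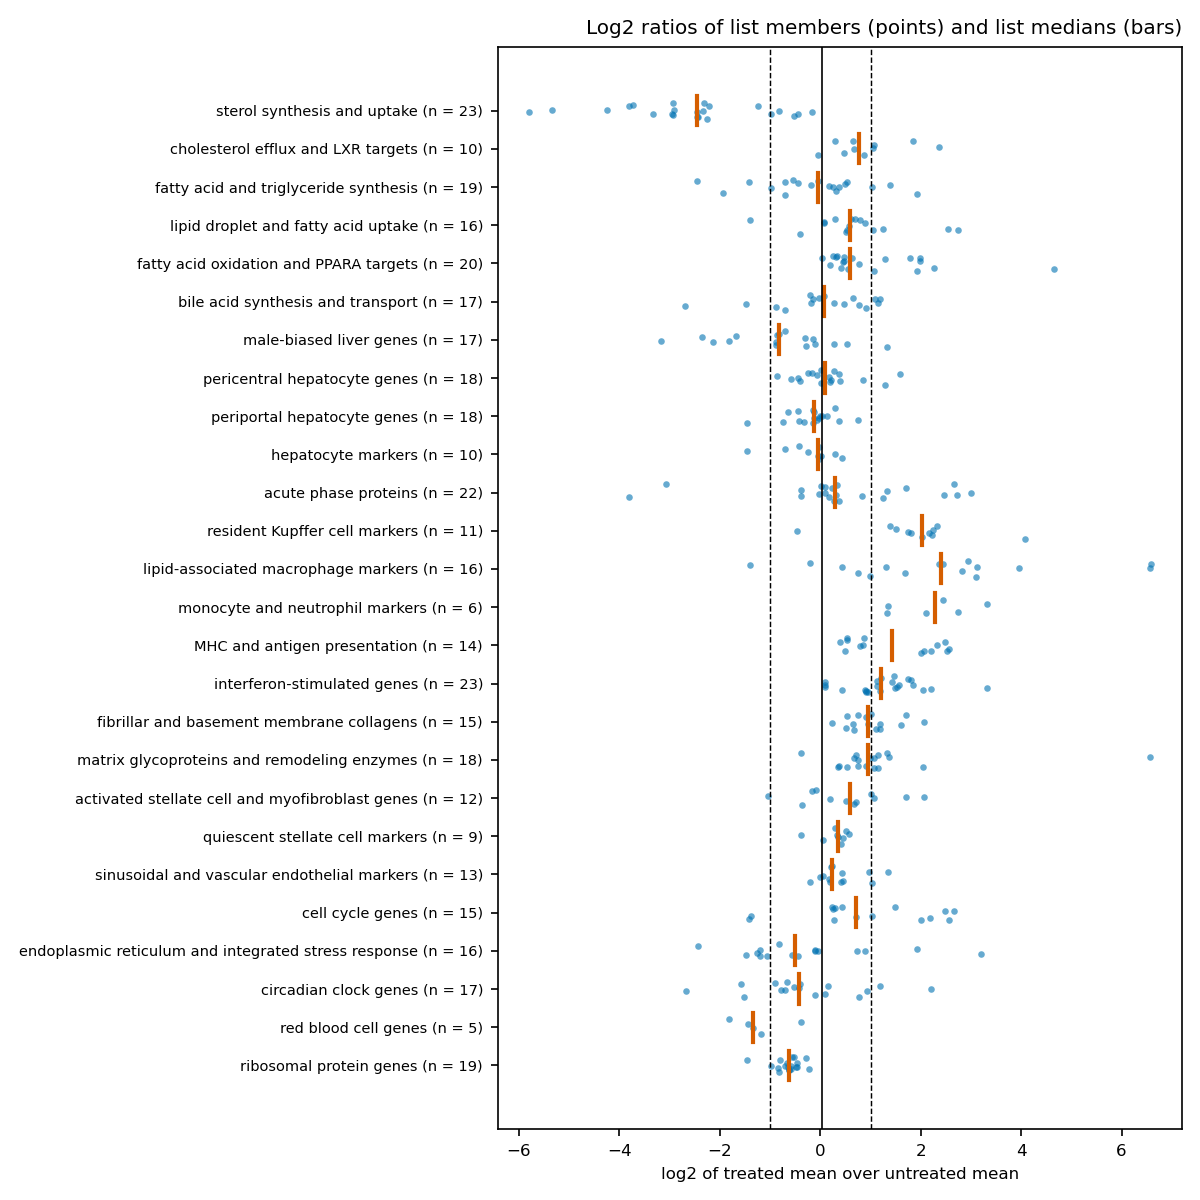
Log2 of the treated over the untreated mean (x) for the members of 26 gene lists with a mean of at least 1 (blue points, number in parentheses) and the list medians (orange bars). Dashed lines mark 2-fold and the black line the median of all genes, 0.03. Of the lists drawn, sterol synthesis has the lowest median, -2.45, and lipid-associated macrophage markers the highest, 2.40, although with a pseudocount of 1 their median (1.48) was below that of Kupffer cell markers (1.69).

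Genes with a known sex bias in mouse liver were examined because the mice were male. Of 17 male-biased genes, 14 were lower and 3 higher by any amount in treated liver, where 46.8% of all genes were lower. Of the 17, 5 were at least 2-fold lower and 1 at least 2-fold higher, against 3.02% and 6.38% of all genes. The median was -0.83. Mup7 encodes a major urinary protein and went from 11000 to 3430, Serpina1e, an alpha-1 antitrypsin, from 3990 to 784, Hsd3b5 from 128 to 29 and Selenbp2 from 391 to 111. Elovl3 went the other way (13.7 and 34.3). The table holds 13 of 18 female-biased genes and 4 passed the filter, with values in both directions. Cyp2a4 had the highest ratio of all genes whose mean was 10 or more, from 0.348 to 32.6 (93.7-fold), on chromosome 7 from 26307169 to 26315089. Cyp2b9 went from 0.135 to 6.08. Cyp17a1 was 2.12-fold lower, and 9 genes were under the filter, among them Cux2 (0.225 and 0.188), the repressor that female livers express. The paralog Cyp2a5, almost identical to Cyp2a4 in sequence, was at 495 and 414, and how reads were split between such copies could affect Cyp2a4, the Mup genes and the other families named here. With no filter, the median of the 13 female-biased genes in the table was -0.05.

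Among the Cyp1, Cyp2 and Cyp3 enzymes of drug metabolism, 27 of 33 passed the filter, 4 were higher and 4 lower by at least 2-fold. Of all genes 6.38% were higher and 3.02% lower by as much. Cyp2c39 (27.2 and 140) and Cyp2c38 (8.38 and 42.8) were higher. Cyp2b10, a target of the receptor CAR, was at 2.27 and 0.346, Cyp2c29 at 648 and 255. Cyp2e1, which activates DEN and oxidizes ethanol, differed by 1.15-fold (3460 and 3990). Of 10 genes of ethanol and acetaldehyde metabolism 1 differed by 2-fold: Aldh3a2, a fatty aldehyde dehydrogenase, at 150 and 432. Aldh2, the main acetaldehyde dehydrogenase, was at 554 and 870.

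Few zonation markers differed by 2-fold. Of all genes 6.38% were at least 2-fold higher and 3.02% at least 2-fold lower. Of 18 pericentral genes 2 were at least 2-fold higher, the glutamate transporter Slc1a2 (92.7 and 226) and the dicarboxylate transporter Slc13a3 (6.53 and 19.7), and Glul was at 546 and 704. Axin2 (4.05 and 4.61) and Lgr5 (5.83 and 5.88), WNT targets of the same zone, were almost equal. Of 18 periportal genes 1 differed by 2-fold, Tat. Among 12 genes of hepatocyte glucose metabolism, 1 was at least 2-fold higher, and Pck1 was at 897 and 715.

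Markers of resident Kupffer cells were higher in treated liver for 10 of 11, each of these by at least 2-fold, against 6.38% of all genes. The summed mean of the list was 101 untreated and 365 treated. Marco, a scavenger receptor, went from 0.87 to 14.6 and Cd5l, a secreted protein of tissue macrophages, from 22.9 to 114. Clec4f, a lectin restricted to Kupffer cells, went from 27.3 to 71.2, and Timd4, which marks those of embryonic origin, from 1.7 to 4.81. C1qa, C1qb and C1qc, the chains of complement C1q, were 4.08-fold, 4.71-fold and 4.72-fold higher. The exception was Cd163, the hemoglobin scavenger receptor, at 11.6 and 8.44.

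Lipid-associated macrophages are macrophages that gather in fatty tissue and in fibrotic liver. Of 16 markers 11 were at least 2-fold higher and 1 lower, against 6.38% and 3.02% of all genes, with a median of 2.40. That median was 1.48 with a pseudocount of 1 and 0.99 at a minimum mean of 10. Gpnmb (0.0937 and 8.98) and Mmp12 (0.157 and 14.9), a membrane glycoprotein and the macrophage elastase, had the highest ratios of all 11797 genes, 95.8-fold and 94.9-fold. The untreated mean of Gpnmb is low, and the lowest value of any gene in untreated liver was 0.04. Trem2, the lipid receptor that defines these cells, went from 0.253 to 1.8, Itgax, which encodes CD11c, from 0.235 to 3.66, and Clec7a, a receptor for fungal glucans, from 2.54 to 21.9. Gpnmb, Mmp12, Trem2 and Itgax had untreated means under 1 and passed the filter only through their treated means. Spp1 (52.3 and 45.1) and Fabp5 (16.4 and 6.19) were not higher, and both are also made by other cells of the liver.

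All 11 monocyte and neutrophil markers found in the table were at least 2-fold higher, but 5 of these had a mean under 1. In genes with a mean under 1, 16.5% were at least 2-fold higher. The monocyte receptors Ccr2 (0.564 and 3.78) and Cx3cr1 (0.256 and 2.54) and the lysozyme Lyz2 (24.9 and 107) passed the filter. Ccr2 and Cx3cr1 had untreated means under 1 and passed it only through their treated means. Markers of T, NK and B cells were scarce. The table holds 24 of them; 23 had a mean under 1, and 22 were higher in treated liver (53.7% of all rows were), such as Cd8a (0.235 and 1.05) and Cd3e (0.226 and 1.25). Without a filter 17 of the 24 were at least 2-fold higher, where 9.37% of all rows were and 4.69% were at least 2-fold lower. These 17 all had a mean under 1, so the closer background is the 16.5% of genes with a mean under 1.

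**Figure D4:**
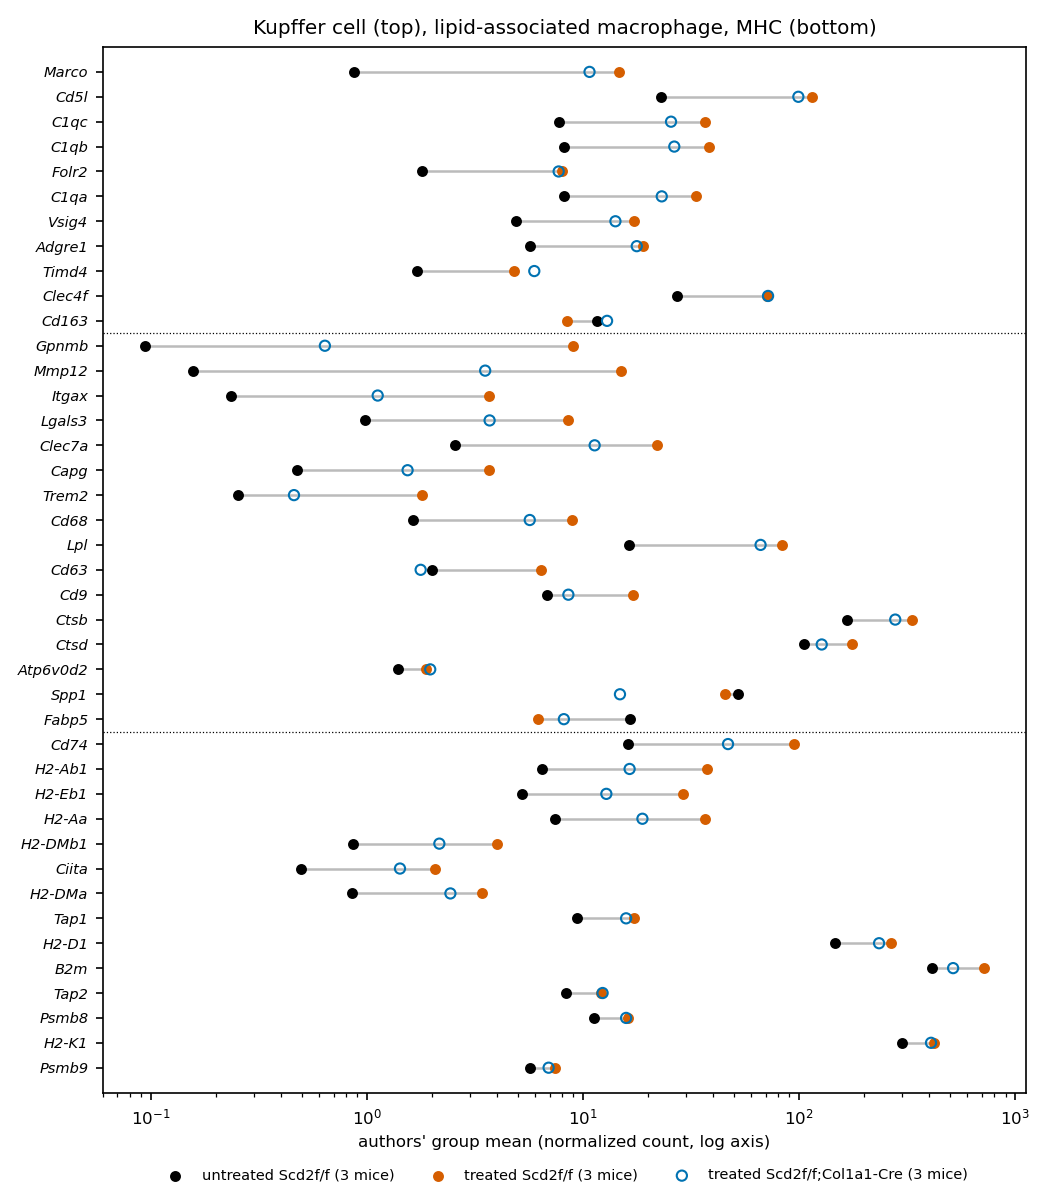
Authors' group means on a log axis (x) for Kupffer cell markers, lipid-associated macrophage markers and MHC genes with a mean of at least 1, from top to bottom. Black, untreated Scd2f/f; orange, treated Scd2f/f; open blue, treated Scd2f/f;Col1a1-Cre (3 mice each, no error available). The orange points lie right of the black ones for all but Cd163, Spp1 and Fabp5.

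In the MHC list all 14 genes were higher, and the 7 that passed 2-fold were those of the class II pathway. Of all genes, 52.6% were higher by any amount and 6.38% at least 2-fold. Cd74, the invariant chain, went from 16.1 to 94.9, H2-Ab1 from 6.48 to 37.4, H2-Eb1 from 5.23 to 29.1 and Ciita, the class II transactivator, from 0.494 to 2.07. Class I and its peptide supply differed by less, with B2m at 411 and 715, H2-K1 at 299 and 420 and Psmb9, a subunit of the immunoproteasome, at 5.69 and 7.43. The class II genes are expressed mainly by antigen-presenting cells, and the class I genes by nearly all cells.

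Of 24 chemokines and receptors 11 passed the filter and 7 were at least 2-fold higher. Of all genes 6.38% were, and of those with a mean from 1 to 3, 14.98%. Cxcl10 (0.739 and 5.97) and Cxcl9 (2.71 and 13.4), ligands that interferon induces, and Ccl5 (0.35 and 1.92) were among them. Ccl2, the ligand of Ccr2, was under the filter at 0.172 and 1.72. Cxcl12 was at 119 and 115, and Ccl9 was just under 2-fold lower (44.5 and 22.3). Of 18 cytokine and receptor genes found, 16 passed the filter and 9 were at least 2-fold higher, where 6.38% of all genes were. Il1rn, the interleukin-1 antagonist, had the highest ratio (0.526 and 5.27), above Il1b (0.92 and 2.45). Csf1r, the receptor on which macrophages depend, went from 17 to 60.8, and Tnf, under the filter, from 0.132 to 0.579.

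Interferon-stimulated genes were higher as a group. Of 24 listed genes 23 passed the filter, all 23 were higher by any amount (52.6% of all genes were) and 15 at least 2-fold (6.38% were), and the median log2 ratio was 1.21. Oas3, an oligoadenylate synthetase that senses double-stranded RNA, had means of 0.288 and 2.89, Gbp2, a guanylate binding protein, of 1.96 and 9.02, and Oas1a of 1.1 and 4.57. Rsad2, the antiviral enzyme viperin, went from 2.99 to 10.1. Stat2 (21.5 and 22.9) and the RNA sensor Ifih1 (33.3 and 35.7) each differed by 1.07-fold.

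Interferon acts through the interferon-stimulated response element, searched here on both strands as GAAA, any 2 bases and GAAA. It was found in 11 of 17 listed genes that have a RefSeq promoter, against 3.44% of 32851 promoters. Of the 8804 tested genes with a promoter, 3.94% had it. Those 11 include genes of high ratio and genes of ratio near 0, as in the sequences shown, which run on the strand of the gene with the match in capitals and 20 bases on either side where the window allows (GRCm38.p6). They are ordered by log2 ratio, from Oas3 (3.33), Gbp2 (2.20), Oas1a (2.05), Rsad2 (1.76), Ifit1 (1.21) and Isg15 (0.88) to Ifih1 (0.10) and Stat2 (0.09).

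Oas3, chr5:120777705-120777754, minus strand: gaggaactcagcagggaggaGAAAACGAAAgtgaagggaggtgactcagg
Gbp2, chr3:142620584-142620633, plus strand: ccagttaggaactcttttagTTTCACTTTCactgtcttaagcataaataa
Oas1a, chr5:120907510-120907559, minus strand: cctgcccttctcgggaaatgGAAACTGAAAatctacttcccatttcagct
Rsad2, chr12:26456543-26456592, minus strand: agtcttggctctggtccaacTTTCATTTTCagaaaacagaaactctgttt
Ifit1, chr19:34640784-34640833, plus strand: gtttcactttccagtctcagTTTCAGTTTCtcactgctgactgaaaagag
Isg15, chr4:156200855-156200904, minus strand: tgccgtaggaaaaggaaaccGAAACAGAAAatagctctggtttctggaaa
Ifih1, chr2:62646206-62646243, minus strand: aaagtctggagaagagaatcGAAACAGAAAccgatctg
Stat2, chr10:128270256-128270305, plus strand: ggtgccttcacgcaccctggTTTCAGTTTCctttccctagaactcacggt

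The match of Ifih1 lies after the start and that of Stat2 lies 222 bases before it, whereas those of the other 6 genes lie within 120 bases before it. A match is a description of the letters and not a binding site.

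Of 16 collagens 15 passed the filter, and 7 were at least 2-fold higher, against 6.38% of all genes. The other 8 lay between, and all 15 were higher by any amount, against 52.6% of all genes, with a median of 0.94. Col1a1, the chain of type I collagen whose promoter drives the Cre of the remaining group, went from 4.69 to 19.6 (4.18-fold), Col1a2 from 6.65 to 21.7 and Col3a1 from 19.3 to 58.6. The basement membrane chains Col4a1 (25.1 and 39.9) and Col18a1 (323 and 379) were under 2-fold. Among the matrix glycoproteins and remodeling enzymes 18 of 22 passed and 8 were at least 2-fold higher, where 6.38% of all genes were. The 8 include Fbn1, the fibrillin of microfibrils (3.58 and 9.02), the collagen cross-linker Loxl2 (2.4 and 5.32) and the gelatinase Mmp2 (1.19 and 3.06). Timp1, an inhibitor of metalloproteinases, was under the filter at 0.0974 and 0.645.

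Of 16 genes of activated HSC and myofibroblasts 12 passed the filter, 4 were at least 2-fold higher and 1 lower. Of all genes 6.38% and 3.02% were. The median of the list was 0.59, or 1.36 at a minimum mean of 10. The 4 were Col1a1, Col1a2, Cyp1b1 and Vim, and no contractile gene was among them. Acta2, smooth muscle actin, had means of 1.27 and 1.2, Tpm1 of 20.2 and 17.9, and Tagln, a calponin-like protein of smooth muscle, was at least 2-fold lower (7.85 and 3.79). Vim was 2.02-fold higher, and the receptor Pdgfrb was at 6.08 and 9.91. Of 9 quiescent HSC markers found, 0 differed by 2-fold, with Lrat, which esterifies vitamin A, at 15 and 19 and Reln at 73 and 89.2. Untreated liver held the skeletal muscle genes given above, and their part in the contractile genes was not tested.

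**Figure D5:**
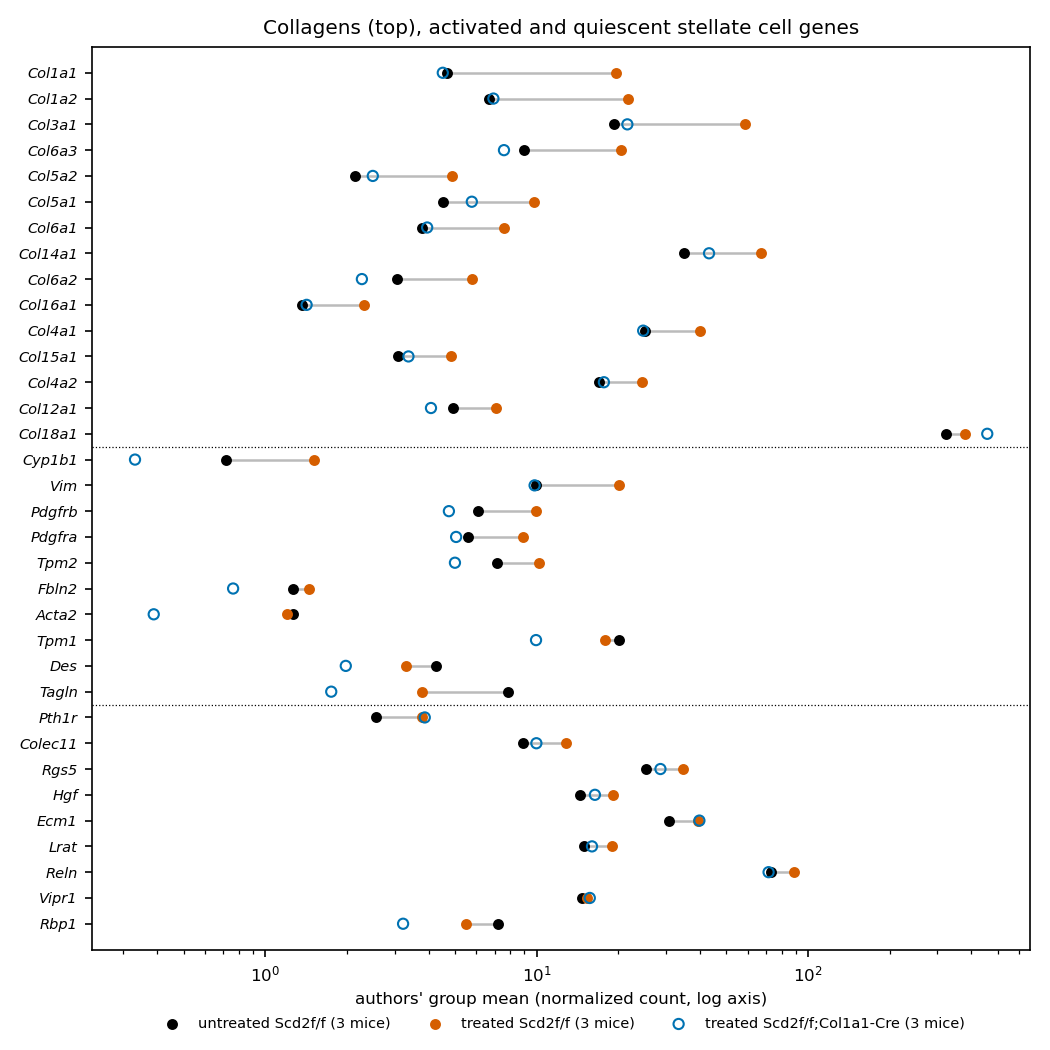
Authors' group means on a log axis (x) for collagens, other genes of activated HSC and myofibroblasts, and quiescent HSC markers with a mean of at least 1, from top to bottom. Black, untreated Scd2f/f; orange, treated Scd2f/f; open blue, treated Scd2f/f;Col1a1-Cre (3 mice each, no error available). Col1a1 and Col1a2 have the widest gaps between black and orange among collagens, and Tagln lies the other way.

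Of 13 endothelial markers Lyve1 (2.6 and 6.6) and Cdh5 (13.6 and 27.7) were at least 2-fold higher, where 6.38% of all genes were. Stab2, a scavenger receptor of sinusoidal cells, was at 36.9 and 42.8. Cholangiocyte and progenitor markers were mostly low. Of 12 found, 6 passed the filter and 1 was at least 2-fold higher, Cd24a (1.51 and 3.44), while Epcam was at 1.97 and 1.82, Krt19 at 0.746 and 0.751 and Sox9 at 3 and 5.03.

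Genes of liver tumors and fetal liver were higher in part. Of 19 found, 12 passed the filter and 7 were at least 2-fold higher, with a median of 1.05. Of all genes 6.38% were at least 2-fold higher, and of those with a mean from 1 to 3, 14.98%. Ly6d, a small surface protein, went from 1.71 to 14.5, Fam83a from 0.462 to 3.22 and Cd44, the hyaluronan receptor, from 3.3 to 21. Afp, alpha-fetoprotein, was 2.04-fold higher at 1.21 and 2.47. Gpc3, a glypican of hepatocellular carcinoma, was under the filter (0.39 and 0.915), Igf2 was at 0.435 and 0.29, and Myc was at 6.84 and 6.41.

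Cell cycle genes were low in both groups. Of 30, 15 passed the filter, and 7 were at least 2-fold higher and 2 lower, against 6.38% and 3.02% of all genes. Among genes with a mean from 1 to 3, where most of these lie, 14.98% were at least 2-fold higher. Over all 30, 28 were higher in treated liver by any amount, where 53.7% of all rows were. The 15 with a mean under 1 were all among these 28. Mki67 went from 1.41 to 8.32, Cenpf, a kinetochore protein, from 0.33 to 2.1, Prc1, which organizes the spindle midzone, from 0.325 to 1.81 and Top2a from 0.963 to 3.88. Cenpf, Prc1 and Top2a had untreated means under 1 and passed the filter only through their treated means. The S-phase genes were closer, with Pcna at 10.5 and 12.6 and Mcm2 at 2.13 and 2.62. Rrm2, the small subunit of ribonucleotide reductase (4.09 and 1.52), and Ccne1, cyclin E1 (1.76 and 0.678), were lower. Ccnd1, cyclin D1, was at 19.2 and 23.1.

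Mitotic genes carry a cell cycle genes homology region, searched as TTTGAA on both strands. It was found in 12 of 24 listed genes with a promoter, against 17.9% of all promoters and 14.3% of the tested genes with a promoter. CCAAT, a box that often accompanies it, was found in 20 of 24, against 37.4% and 43.1%. Neither search word contains the other. The windows of 3 mitotic genes and of Mcm2, a replication gene that also has the word, are shown on the strand of the gene with the match nearest to the start in capitals (GRCm38.p6).

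Mki67, chr7:135716452-135716497, minus strand: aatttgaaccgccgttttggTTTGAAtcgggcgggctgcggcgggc
Cenpf, chr1:189688059-189688104, minus strand: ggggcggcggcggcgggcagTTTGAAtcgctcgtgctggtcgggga
Top2a, chr11:99024187-99024232, minus strand: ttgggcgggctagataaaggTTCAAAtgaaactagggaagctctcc
Mcm2, chr6:88898825-88898870, minus strand: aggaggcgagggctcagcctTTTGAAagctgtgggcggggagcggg

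Of 16 p53 targets 14 passed the filter and 4 were at least 2-fold higher, where 6.38% of all genes were. Cdkn1a, the cell cycle inhibitor p21, went from 0.464 to 4.33 and Gdf15, a stress cytokine, from 2.56 to 13.1. Eda2r (0.984 and 2.34) and Btg2 (5.04 and 10.4) followed, whereas Mdm2 was at 18.2 and 22.1 and Ccng1 at 24.1 and 34.3. Of the 14, 13 were higher by any amount (52.6% of all genes were), with a median of 0.41.

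Acute phase genes differed in both directions. Of 22, all measured, 7 were at least 2-fold higher and 2 lower, against 6.38% and 3.02% of all genes. Lcn2, which sequesters bacterial siderophores, went from 5.21 to 41.8, Saa2, a serum amyloid, from 8.95 to 56.4, and Orm2, an orosomucoid, from 5.83 to 32. The abundant members hardly differed, with Hpx, hemopexin, at 2040 and 2180 and Fga, a fibrinogen chain, at 1910 and 2250. The metallothioneins Mt1 (185 and 22.1) and Mt2 (108 and 7.72), which bind zinc and copper, were 8.37-fold and 13.99-fold lower. Of 15 genes of iron handling 0 differed by 2-fold, and Hamp, the hormone hepcidin, came nearest at 109 and 56.2.

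Genes of the stress responses of the endoplasmic reticulum differed in both directions. Of 17, 16 passed the filter, 6 were at least 2-fold lower (3.02% of all genes were) and 2 at least 2-fold higher, with a median of -0.50, or -0.18 with equal totals over all rows. Hspa5, the chaperone BiP, had means of 1010 and 437, Creld2 of 48.4 and 8.93 and Manf of 78 and 27.9. The 2 higher genes were Atf3, a stress transcription factor (0.404 and 3.69), and Chac1, which degrades glutathione (1.06 and 4.01). Of 20 NRF2 targets and glutathione transferases, 19 passed and 4 were at least 2-fold higher, where 6.38% of all genes were. Among the 4 were Hmox1, heme oxygenase (4.25 and 17.4), and Gsta1 (2.82 and 10). Srxn1, which repairs peroxiredoxins, was lower (114 and 26.4), and Nqo1 was at 2.48 and 3.64. Ribosomal protein genes were lower for all 19 listed, and 1, Rps14 (174 and 63.6), was at least 2-fold lower, with a median of -0.61, or -0.30 with equal totals over all rows. Among all 93 such genes by symbol 85 were lower. Of all genes 46.8% were lower by any amount and 3.02% at least 2-fold.

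Of 14 immediate early genes 11 passed the filter and 4 were at least 2-fold higher, where 6.38% of all genes were. The 4 were Klf6 (6.75 and 23.8), Egr1 (5.59 and 18.1), Fos (0.742 and 2.47) and Nr4a1 (0.44 and 1.82). Clock genes differed in both directions. Of 18, 17 passed, 2 were at least 2-fold higher and 3 lower, against 6.38% and 3.02% of all genes. Arntl, which encodes the activator BMAL1, was at 0.471 and 2.17 and Nr1d1, the repressor REV-ERB alpha, at 18.9 and 43.1. Per2 (16.3 and 5.7), Per3 (12.9 and 4.32) and Ciart (5.57 and 0.874), repressors of the clock, were lower. These genes cycle over the day, and the hour of collection is not given in the sources used here, so treatment and hour cannot be told apart. BMAL1 binds the E-box, CACGTG. The word was found in 5 of 15 listed genes with a promoter, 7.15% of all promoters and 11.9% of the tested genes with a promoter. The gene of lowest ratio and Per1 (17 and 9.1), which did not differ by 2-fold, both carry it:

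Ciart, chr3:95882247-95882292, minus strand: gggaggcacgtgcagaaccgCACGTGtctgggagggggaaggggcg
Per1, chr11:69098763-69098808, plus strand: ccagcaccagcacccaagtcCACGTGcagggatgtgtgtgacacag

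The study is about SCD2, YAP1 and an oxylipin pathway, so these genes were listed too. Yap1 had means of 41.2 and 32.2 and Wwtr1, which encodes TAZ, of 16.7 and 25, both under 2-fold. Of 9 genes of the YAP and TAZ list that passed the filter 2 were at least 2-fold higher, Cyr61 (5.11 and 12.7) and the receptor kinase Axl (9.07 and 26.9), while Ctgf was at 5.4 and 4.33 and Birc5, survivin, was under the filter at 0.262 and 0.624. In the oxylipin list 4 of 13 genes passed the filter and 3 were at least 2-fold higher. The 3 were the phospholipase Pla2g4a (0.793 and 3.06), the thromboxane synthase Tbxas1 (0.833 and 2.61) and Cyp1b1 (0.717 and 1.51). Each had an untreated mean under 1 and passed the filter only through its treated mean. Of all genes 6.38% were at least 2-fold higher, and of those with a mean from 1 to 3, 14.98%. With a pseudocount of 1 the log2 ratios of Tbxas1 and Cyp1b1 were 0.98 and 0.55, under 2-fold, and with a pseudocount of 0.1 that of Cyp1b1 was 0.98. The cyclooxygenase Ptgs2 (0.0515 and 0.492) and the receptor Ltb4r2 (0.412 and 0.308) were under the filter. Ctnnb1, beta-catenin, was at 89.9 and 105.

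Beyond the lists, the genes of lowest ratio with a mean of at least 10 included AY036118, a noncoding RNA that overlaps CT010467.1 (367 and 0.0791), Moxd1, a monooxygenase (21.3 and 0.643), Plet1, a progenitor surface protein (23.7 and 1.29), and the glucuronosyltransferases Ugt2b37 (38.7 and 2.48) and Ugt2b38 (56.3 and 6.25). The genes of highest ratio included Cybb, the catalytic subunit of the phagocyte NADPH oxidase (5.11 and 31.2), the protease Ctss, which cuts the invariant chain (9.84 and 55.1), and Sirpa, the receptor for CD47 (6.09 and 33.5). The gains in mean after Scd1 and Apoe were those of Apob (8270 and 11200) and the complement protein C3 (3050 and 4770).

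The means of treated Scd2f/f;Col1a1-Cre liver are given side by side with the others for a few genes. No difference was drawn from them, since the mean of treated Scd2f/f liver would enter both differences. Idi1 was at 7.63 and Sqle at 1.14 in that group, and the list of sterol synthesis and uptake summed to 687, with 774 in treated and 2992 in untreated Scd2f/f liver. Kupffer cell markers summed to 315, with 365 treated and 101 untreated. Col1a1 was at 4.51 and Col3a1 at 21.6 there. Lipid-associated macrophage markers summed to 534, with 739 treated and 374 untreated. Among them, Trem2 was at 0.459 and Gpnmb at 0.638, with 1.8 and 8.98 in treated Scd2f/f liver. The list of liver tumor and fetal genes summed to 139, with 172 treated and 114 untreated. Of its single members, Ly6d was at 1.59 and Fam83a at 0.479, with 14.5 and 3.22 in treated Scd2f/f liver. Moxd1 was at 31.9 and Cyp2b9 at 31.1 in Scd2f/f;Col1a1-Cre liver.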

How the data were processed

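Polyadenylated RNA of liver tissue, from next to tumors in the treated mice, was sequenced from 3 mice per group (TruSeq v2 libraries, Illumina NextSeq). Per the study's methods, the authors assigned reads to Gencode M3 genes in Partek Flow, scaled each library to its upper quartile and tested groups by gene-specific analysis, and the submitters' processing notes name STAR 2.6.1, Partek 6 and the build mm10. The deposited table holds 16755 rows and 18 columns. The values used are signal values, the authors' least-squares means of normalized counts, 1 per gene and group, written to 3 significant digits. The 8 columns of the authors' own comparisons (p-values, false discovery rates, ratios and fold changes) were not used. Read depth and single-mouse values were not analysed here, so the depth is unknown and no error, interval or test was computed here.

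Ratios were computed in Python 3.11.15 with NumPy 2.4.6 and pandas 2.3.3, drawn with Matplotlib 3.10.9, and tested on simulated data. Genes had to reach a mean of 1 over both group means. Gene types and coordinates are those of the table (mm10), checked against Gencode M21: 16171 symbols matched, with overlapping coordinates for 99.975%. A further 20 symbols had been turned into dates. Promoter sequences are from RefSeq (GRCm38.p6).

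The members and the 47 gene lists were chosen with earlier results of these data known. Named genes were the 15 highest and 15 lowest ratios at a mean of at least 10, the 10 largest gains and 10 largest losses in mean, from each list up to 6 members by size of ratio and 2 by mean, and the genes the study names. Chosen outside this rule, after their values were seen, were the skeletal muscle list, the families counted by symbol and single members such as Acta2, Afp, Axin2, Ccne1, Cd163, Col4a1, Cpt1a, Cyp2a5, Dhcr7, Ebp, Ifih1, Ifit1, Insig1, Isg15, Lgr5, Lrat, Mcm2, Mdm2, Myc, Nqo1, Nr1h3, Per1, Ppara, Psmb9, Rrm2, Sc5d, Slc10a1, Srebf2, Stat2, Timd4 and Trem2. Alternatives were a pseudocount, other minimum means and folds, other scalings, protein-coding genes alone, and rows summed per symbol. None of 9 listed mitochondrially encoded genes is in the rows used. Some genes are not reported here by name, and they stay in the counts and medians of their lists.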

Additional observations from a re-analysis of the deposited data

How the results depend on the processing

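Of 11797 genes, 753 were at least 2-fold higher and 356 lower, with a median log2 ratio of 0.03. The counts were 457 and 230 with a pseudocount of 1, 1570 and 785 with no minimum mean, and 143 and 156 with a minimum mean of 10. They were 1505 and 1041 at a fold of 1.5, 189 and 86 at a fold of 4, and 1231 and 218 with the same total over all rows, which moved the median to 0.34. Median centring, a pseudocount of 0.1, protein-coding genes alone (726 and 263), and rows summed per symbol moved both counts by less than 1.5 times. So did 3 alternatives chosen after seeing the data: the same total over protein-coding rows (796 and 331), leaving out skeletal muscle genes (753 and 339) and leaving out short RNA types and duplicated rows (751 and 316).

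The median of female-biased genes was 2.96, and -0.0525 with no minimum mean. That of pancreatic acinar markers was -2.18 over 1 gene, and 1.71 with no minimum, over 5. That of chemokines and receptors was 1.88, and -0.0493 with a minimum of 10. Fewer or more genes entered each of these. With the same total over all rows, medians just below 0 were above it for fatty acid synthesis (0.28), xenobiotic enzymes (0.26), periportal genes (0.20), glucose metabolism (0.09), T, NK and B cell markers (0.18, 1 gene) and hepatocyte markers (0.28). A pseudocount of 1 moved 14 list medians and named log2 ratios by more than a 1.5-fold ratio, among them the log2 ratio of Cyp2a4 (6.55 to 4.64), the log2 ratio of AY036118 (-12.18 to -8.41), those of Ptgs2 (3.26 to 0.50), Birc5 (1.25 to 0.36) and Tbxas1 (1.65 to 0.98), and the medians of lipid-associated macrophage (2.40 to 1.48) and monocyte and neutrophil markers (2.28 to 1.31). No paired analysis was possible because the values used are group means; for the same reason, leaving out each replicate in turn was not run. The second column with the treated mean was not used either.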

Other observations

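Enzymes of glycolysis and the pentose phosphate pathway that dividing cells use were among the lists not yet described. Of 14, all measured, 4 were at least 2-fold higher after DEN + WAD and 0 lower, against 6.38% and 3.02% of all genes. The median log2 ratio was 0.45. Hk2, a hexokinase that adult hepatocytes barely express, had authors' means of 0.804 untreated and 2.89 treated, Pkm, the muscle-type pyruvate kinase, of 5.06 and 14, Pfkp, the platelet phosphofructokinase, of 1.08 and 2.79, and G6pdx, which opens the pentose phosphate pathway, of 1.2 and 4.08. The enzymes with high means differed less, with Ldha at 212 and 301 and Gapdh at 125 and 164. Of 15 S100 proteins and annexins, which bind calcium, 13 passed the filter and 5 were at least 2-fold higher (6.38% of all genes were). Anxa5 was at 27 and 87.3 and Anxa2 at 5.48 and 16.8, and S100a10, a partner of Anxa2, was at 95.3 and 58.7. Of 12 tubulins 9 passed, 2 were at least 2-fold higher and 1 lower, with Tubb2a at 13.6 and 40.3 and Tubb6 at 9.04 and 4.46.

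Markers of neighbouring tissues were mostly under the filter or not in the rows used. Of 7 pancreatic acinar markers only Cela1, an elastase, passed (15.4 and 3.4). Of 5 adipocyte markers only Cfd, the complement protease adipsin, was found, at 0.688 untreated, 12.9 treated and 15.1 in treated Scd2f/f;Col1a1-Cre liver.

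Families counted by symbol after the values were seen differed in direction too. All 21 Mup genes, which encode urinary pheromone carriers, were lower and 7 at least 2-fold, against 46.8% and 3.02% of all genes. Their median was -0.76, and their reads are hard to tell apart. Nuclear genes of oxidative phosphorylation were lower for 68 of 79, but 1 by at least 2-fold, with a median of -0.30, a shift smaller than that between the scalings (0.32). Of 24 replication-dependent histone genes 6 were at least 2-fold higher (6.38% of all genes were), and histone RNAs mostly lack a poly(A) tail.

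Single genes that stood out, also picked after their values were seen, were Ntrk2, the receptor of the neurotrophin BDNF (0.436 and 18.6), Themis, a signaling protein of developing T cells (1.06 and 12), Gpr35, an orphan receptor (0.106 and 2), and the heat shock gene Hspa1a (0.415 and 3.96). Lower were Nrg4, a growth factor of the EGF family (17.6 and 2.66), and Slc10a2, the bile acid transporter of ileum and bile duct (71 and 10.2).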
